A study of Homo sapiens with 6 samples.

Results

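PRKAR2B, CAMKK1 and SCYL3 are the 3 kinase-related genes, chosen by their symbols, of the 99 genes analysed from a gene table of prostate cancer cells. The cells, LNCaP-AI, are labelled a castration-resistance line and carried either the sh_0092339 hairpin, whose target is the circular RNA hsa_circ_0092339, or a negative control vector. There were 3 libraries of hairpin cells, referred to as the knockdown, and 3 of vector cells, the controls. The series title places this circular RNA in an axis with hsa-mir-940 and MYC, and the comparison asks which RNAs differ between hairpin and vector cells. All knockdown libraries bear the same hairpin name, so what the hairpin does to other RNAs and what the loss of its target does cannot be told apart. No row carried the circular RNA, and the knockdown itself was not checked. The labels do not say that replicates were separate cultures, so a p-value here reflects the spread between libraries, and that spread may be technical.

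Cyclic AMP signals through protein kinase A, in which a pair of regulatory subunits holds the catalytic subunits inactive until cyclic AMP binds. PRKAR2B encodes the type II beta regulatory subunit, which binds A-kinase anchoring proteins. CAMKK1 encodes calcium/calmodulin-dependent protein kinase kinase 1, which phosphorylates CaM kinases I and IV when calcium rises. SCYL3 encodes a SCY1-like pseudokinase, a protein with a kinase fold that lacks residues needed for catalysis and is found at the Golgi and at the leading edge of migrating cells.

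PRKAR2B lies on the plus strand of chromosome 7 (107044705 to 107161811), CAMKK1 on the minus strand of chromosome 17 (3860315 to 3894891) and SCYL3 on the minus strand of chromosome 1 (169849631 to 169894267), in the coordinates of the table. These coordinates are those of GRCh38, although the submitters' processing notes name hg18. All 3 are annotated as protein coding. The table assigns PRKAR2B 3 transcripts, CAMKK1 4 and SCYL3 5, of which 1, 3 and 4 are protein coding in GENCODE 29. The promoters, from 250 bases before to 50 bases after the RefSeq start (GRCh38.p14, 5′ to 3′ on the strand of the gene), are shown because MYC, named in the series title, binds the E-box CACGTG. Capitals mark matches to this E-box, to the CCAAT box and to the GC box GGGCGG. Each was searched on both strands, and some of the matches overlap.
PRKAR2B, chr7:107044455-107044754, plus strand: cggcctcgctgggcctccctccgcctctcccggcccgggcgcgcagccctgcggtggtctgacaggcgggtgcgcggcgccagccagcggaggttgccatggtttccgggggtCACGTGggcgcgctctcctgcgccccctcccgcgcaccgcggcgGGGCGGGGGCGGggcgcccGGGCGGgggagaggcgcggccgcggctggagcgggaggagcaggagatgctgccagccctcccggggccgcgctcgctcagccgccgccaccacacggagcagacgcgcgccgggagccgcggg
CAMKK1, chr17:3893004-3893303, minus strand: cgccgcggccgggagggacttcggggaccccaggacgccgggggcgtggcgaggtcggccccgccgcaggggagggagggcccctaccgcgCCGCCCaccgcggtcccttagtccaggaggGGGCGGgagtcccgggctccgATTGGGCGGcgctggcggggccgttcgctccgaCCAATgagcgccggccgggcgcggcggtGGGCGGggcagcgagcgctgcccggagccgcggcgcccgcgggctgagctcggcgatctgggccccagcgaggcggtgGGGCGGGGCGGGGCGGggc
SCYL3, chr1:169893847-169894146, minus strand: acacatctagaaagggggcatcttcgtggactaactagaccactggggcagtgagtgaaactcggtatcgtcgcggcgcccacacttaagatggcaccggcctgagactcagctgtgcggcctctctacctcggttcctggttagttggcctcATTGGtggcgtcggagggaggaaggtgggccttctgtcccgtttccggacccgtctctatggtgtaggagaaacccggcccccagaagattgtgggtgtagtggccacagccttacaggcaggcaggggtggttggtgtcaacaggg
An E-box CACGTG was present in PRKAR2B, with its first base at -137, and in neither of the other promoters. Of 35116 RefSeq promoters of this length, 7.3% hold this motif. Of 57 tested genes, 15.8% hold it at 1 or more of their starts, so this share counts genes, not promoters. CAMKK1 has 2 RefSeq starts, and the outer is shown. The RefSeq starts used for CAMKK1 (3893053) and SCYL3 (169893896) lie inside the gene bounds of the table. The 5′ ends by those bounds are 3894891 and 169894267, and sequence around these ends was not searched. For PRKAR2B the RefSeq start and the bound are the same base. The PRKAR2B and CAMKK1 windows were 81.7% and 82.7% G or C, against 59.3% for SCYL3 and a median of 58.7% over all promoters. No window held the cyclic AMP response element TGACGTCA. It is present in 1.8% of all promoters and, counted by gene, in 3.5% of the tested genes. CCAAT was found in CAMKK1 and SCYL3 (34.6% of all promoters, 43.9% of the tested genes), and GGGCGG in PRKAR2B and CAMKK1 (45.0% and 66.7%). These matches are descriptions of sequence, not of binding.

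None of the 3 kinase genes passed the test for a difference between knockdown and control. PRKAR2B and SCYL3 were lower in the knockdown libraries by ratios of 0.923 and 0.871, and CAMKK1 was at a ratio of 1.03. The test was limma on log2(FPKM + 1), where FPKM are fragments scaled for the length of the gene and the depth of the library. It was run over the 70 genes with a mean of at least 1 FPKM, which include all 3, and a gene was called at a Benjamini-Hochberg adjusted p under 0.05. Of those 70 genes 31.4% were called: 14 genes (20.0%) rose and 8 (11.4%) fell. With another scaling of the FPKM that split changed, to 23 that rose and 7 that fell with median centring, and to 8 and 8 with quantile normalization. On the counts it was 13 and 8 by edgeR with TMM, 14 and 8 by edgeR scaled by library size only, and 6 and 9 by DESeq2, whose test differs as well.

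**Figure D1:**
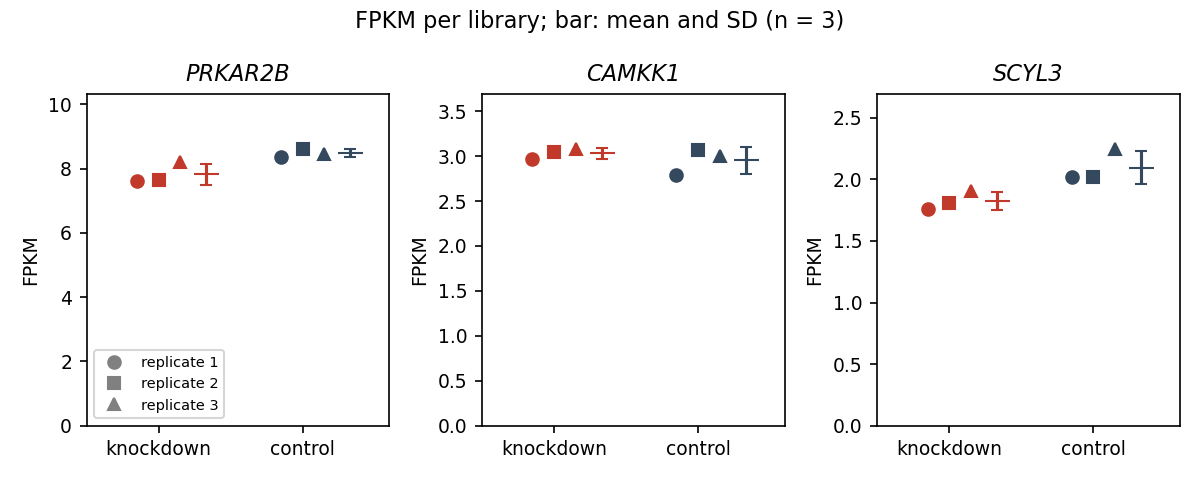
FPKM of PRKAR2B, CAMKK1 and SCYL3 in each library (points, shaped by replicate number), with the mean and SD of each group of 3 beside them. The knockdown points of PRKAR2B (7.60 to 8.20) and SCYL3 (1.76 to 1.91) lie under all control points, and those of CAMKK1 lie among them.

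PRKAR2B had 7.60, 7.66 and 8.20 FPKM in the knockdown libraries, against 8.37, 8.61 and 8.44 FPKM in the controls. Every knockdown library was below every control, and the third knockdown library came within a few percent of the lowest control. The means were 7.82 ± 0.328 FPKM in the knockdown and 8.47 ± 0.124 FPKM in the controls (SD, n = 3 each). The log2 fold change was -0.104 ± 0.0489 (SE), with a limma adjusted p of 0.147. Its 95% interval runs from a fold of 0.858 to 1.01 on the log2(FPKM + 1) scale. In bulk RNA, fewer cells with a transcript and less transcript per cell cannot be told apart.

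The counts behind these values were 1722, 2630 and 2572 fragments in the knockdown libraries and 2073, 2151 and 2483 fragments in the controls. Raw counts follow the depth of each library, which was 53127020, 80559726 and 73620788 mapped fragments in the knockdown and 58091756, 58606592 and 68990788 in the controls. As CPM, the counts scaled by the mapped fragments of the library, PRKAR2B averaged 33.3 ± 1.39 in the knockdown and 36.1 ± 0.522 in the controls (SD, n = 3 each). On the counts, edgeR's quasi-likelihood fit gave a log2 fold change of -0.118 ± 0.0574 (SE, adjusted p = 0.172) for PRKAR2B, in a fit that called 25.0% of 84 genes. The GENCODE 29 antisense-strand transcript AC006387.1 overlaps 67143 bases of the gene, and the sources used here do not say whether the counting used strand.

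CAMKK1 had 2.97, 3.04 and 3.08 FPKM in the knockdown libraries, against 2.79, 3.07 and 2.999 FPKM in the controls. The groups overlapped, and the lowest library was a control. The means were 3.03 ± 0.0575 FPKM in the knockdown and 2.95 ± 0.148 FPKM in the controls (SD, n = 3 each). The log2 fold change was 0.0286 ± 0.0559 (SE), with a limma adjusted p of 0.706. The 95% interval of the fold runs from 0.930 to 1.12 on the log2(FPKM + 1) scale, and from 0.912 to 1.15 with a pseudocount of 0.1. A change larger than these bounds in either direction thus lies outside the interval, whereas a smaller one could not be told from none.

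The fragments counted on CAMKK1 numbered 1173, 1824 and 1688 in the knockdown libraries and 1205, 1340 and 1539 in the controls. The quasi-likelihood fit of edgeR gave a log2 fold change of 0.0360 ± 0.0679 (SE, adjusted p = 0.736). No other gene of GENCODE 29 overlaps CAMKK1, which sets it apart from PRKAR2B, SCYL3 and most others, since 51 of the 70 tested genes overlap one.

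SCYL3 had 1.76, 1.81 and 1.91 FPKM in the knockdown libraries, against 2.02, 2.02 and 2.25 FPKM in the controls. All knockdown libraries were below all controls. The means were 1.82 ± 0.0763 FPKM in the knockdown and 2.10 ± 0.131 FPKM in the controls (SD, n = 3 each). The log2 fold change was -0.132 ± 0.0662 (SE), with a limma adjusted p of 0.169. A pseudocount of 1 weighs on a gene at this level: the 95% interval of the fold was 0.818 to 1.02 on that scale, and 0.749 to 1.03 with a pseudocount of 0.1.

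The counts of SCYL3 were 645, 1006 and 968 fragments in the knockdown libraries and 809, 817 and 1069 fragments in the controls. In CPM it averaged 12.6 ± 0.512 in the knockdown and 14.5 ± 0.902 in the controls. The same edgeR fit gave a log2 fold change of -0.201 ± 0.0898 (SE, adjusted p = 0.149).

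Groups that do not overlap were common in these libraries. PRKAR2B and SCYL3, 2 of the 3, were lower in the knockdown without overlap, and 21.4% of the tested genes were so, while 52.9% did not overlap in one direction or the other. The direction for PRKAR2B and SCYL3 also rested on the scaling. With quantile normalization over the 70 genes their log2 fold changes were 0.0123 and 0.0271, above 0, and with median centring they were -0.0211 and -0.0490. CAMKK1 was at 0.109 and 0.111 under these settings, and none of the 3 was called under any of the 21 alternatives run.

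**Figure D2:**
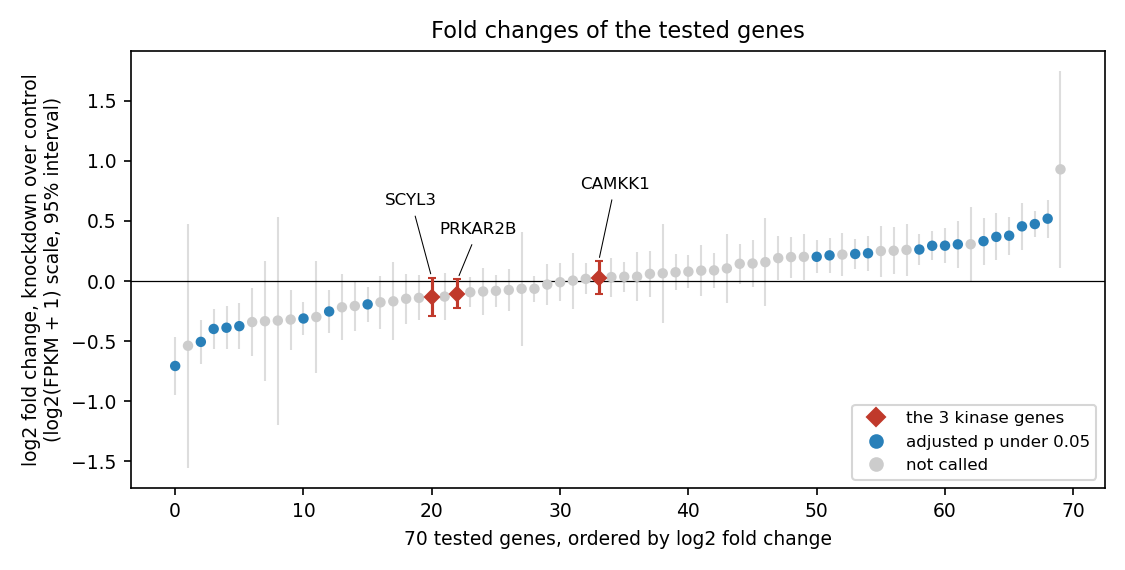
Log2 fold change of knockdown over control for the 70 tested genes, ordered by size, with 95% intervals (log2(FPKM + 1) scale, limma). The intervals of PRKAR2B, CAMKK1 and SCYL3 (diamonds) all include 0, and their estimates lie in the middle of the range.

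Among the tested genes the fold changes of the 3 were small. The median absolute log2 fold change over the 70 genes was 0.201, larger than the value of any of the 3 on the same scale, and the median log2 fold change was 0.0344. Their spread within groups was small as well. Ordered from the smallest within-group SD of log2(FPKM + 1), PRKAR2B ranked 6, CAMKK1 7 and SCYL3 11 of the 70 genes. The pseudocount of 1 lowers fold changes and SDs most for genes of low FPKM, which affects such a comparison. By edgeR on the counts the log2 fold change of SCYL3 was -0.201. Counting error alone is 1.95% to 2.41% of the counts for PRKAR2B, 2.34% to 2.92% for CAMKK1 and 3.06% to 3.94% for SCYL3, as an SD. Between replicates the coefficient of variation of FPKM was 4.19% in the knockdown and 1.46% in the controls for PRKAR2B, 1.90% and 5.01% for CAMKK1, and 4.18% and 6.27% for SCYL3. The PRKAR2B controls and the CAMKK1 knockdown libraries thus differed by less than counting error alone. An SD from 3 libraries is imprecise, and so are the ranks by within-group SD.

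In level, per length, the 3 genes kept 1 order in each of the 6 libraries, with PRKAR2B highest, CAMKK1 next and SCYL3 lowest, and the distances between neighbours exceeded the spread between libraries. By mean FPKM they ranked 35, 56 and 65 of the 99 genes. FPKM here is scaled by the combined exons of all transcripts of a gene. The length implied by count, FPKM and depth was 4262 to 4264 bases for PRKAR2B, 7439 to 7444 for CAMKK1 and 6891 to 6906 for SCYL3, against 4318, 7424 and 6883 bases of annotated exons. It was nearly the same in every library, so these values carry no information on which isoform was used. The coding transcripts are shorter than this length, 2459 to 3563 bases for CAMKK1, for example, and a level per transcript would be higher.

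The fold changes were also set against each other within libraries, in 4 pairs of genes with exact two-sided permutation tests, for which 0.1 is the smallest p that 3 against 3 allow. The ratio of PRKAR2B to CAMKK1 was 2.56, 2.52 and 2.66 in the knockdown libraries and 3.003, 2.80 and 2.82 in the controls. The groups did not overlap (exact p = 0.1, 0.133 adjusted over the 4 pairs). The ratio of SCYL3 to CAMKK1 was 0.593, 0.594 and 0.619 in the knockdown libraries and 0.724, 0.658 and 0.750 in the controls, again without overlap (exact p = 0.1, adjusted 0.133). The ratio of SCYL3 to PRKAR2B was 0.231, 0.236 and 0.233 in the knockdown libraries and 0.241, 0.235 and 0.266 in the controls, which overlap (exact p = 0.2, adjusted 0.2). With 3 libraries against 3, no ratio could reach a p under 0.05, so these tests cannot decide whether a ratio changed. How many gene pairs in all would separate the groups was not computed. Ratios within a library do not depend on scaling by depth.

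SCYL3 shares its locus with C1orf112, the gene of a partner of the AAA ATPase FIGNL1 in recombination repair, which lies on the plus strand of chromosome 1 (169662007 to 169854080). The genes overlap over 4450 bases at their 3′ ends, and 1297 bases are exonic in both, which is 18.8% of the SCYL3 exons and 21.7% of the C1orf112 exons. C1orf112 had 6.26, 5.58 and 5.67 FPKM in the knockdown libraries, against 5.11, 4.84 and 5.64 FPKM in the controls. The groups overlapped narrowly, and the gene was not called (limma log2 fold change 0.143 ± 0.0694 (SE), adjusted p = 0.156). With median centring it was called, at 0.226 with a limma adjusted p of 0.0467, and over all alternatives, limma, edgeR or DESeq2, adjusted p ran from 0.0467 to 0.532.

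**Figure D3:**
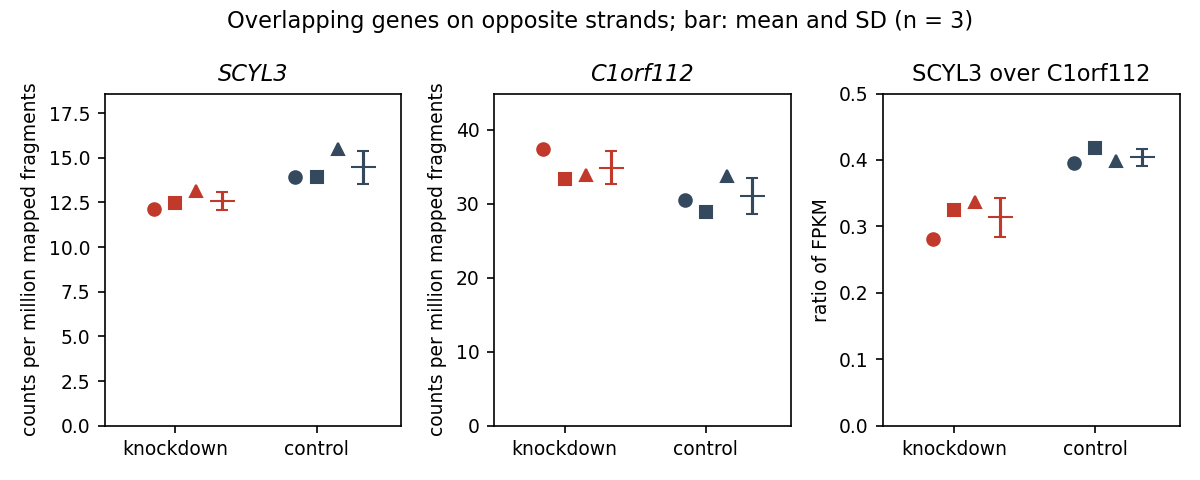
CPM of SCYL3 and of C1orf112, which overlap on opposite strands, and the ratio of their FPKM, by library (points, shaped by replicate number) with the mean and SD of each group of 3. The ratio was 0.281 to 0.336 in the knockdown libraries and 0.395 to 0.418 in the controls.

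The ratio of SCYL3 to C1orf112 was 0.281, 0.324 and 0.336 in the knockdown libraries and 0.395, 0.418 and 0.399 in the controls. All knockdown values were lower, by a fold of 0.775 (exact two-sided permutation p = 0.1, the smallest possible, adjusted 0.133). Reads from the shared exons cannot be assigned to SCYL3 or C1orf112 without strand, and the part of such reads in either value was not tested.

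Of 189 genes on 4 lists of cyclic AMP and protein kinase A, calcium and calmodulin-dependent kinases, pseudokinases, and other kinases and phosphatase subunits, 10 were in the gene FPKM table and 8 were tested. None rose and none fell by limma, against the 31.4% of all tested genes that were called, and none had an unadjusted p under 0.05. By edgeR and by DESeq2 on the counts the number was also 0 of 9, with 0 at an unadjusted p under 0.05 each. Over all 84 genes in those fits, edgeR called 21 and DESeq2 15. The median log2 fold change of the 8, which include PRKAR2B, CAMKK1 and SCYL3, was -0.118, beside 0.0344 over all 70 genes. For the 5 list genes other than these 3 it was -0.14. These medians depend on the scaling of the FPKM, and with median centring the one over all genes was 0.117. The lists were chosen with earlier results of these data known, and a difference between the medians was not tested.

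In the cyclic AMP list, CREBBP, the acetyltransferase recruited by phosphorylated CREB, had 7.82 ± 1.21 FPKM in the knockdown and 7.18 ± 0.886 FPKM in the controls (SD, n = 3 each; limma adjusted p = 0.487). CALCR, the calcitonin receptor, had 0 to 23 counts per library, was under the limit of 1 FPKM for limma, and was not called by edgeR on the counts (adjusted p = 0.942). The other regulatory and catalytic subunits of protein kinase A were not analysed here.

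In the calcium list, MCUB, the inhibitory subunit of the mitochondrial calcium uniporter, had 11.4 ± 0.306 FPKM in the knockdown and 12.1 ± 0.648 FPKM in the controls (limma adjusted p = 0.278). CAMKK2 and the CaM kinases were not analysed here. The pseudokinase list had SCYL3 alone in this table. A second member, PXK, a PX-domain protein with a kinase-like fold, was in the gene count table, where it averaged 28.6 ± 0.858 CPM in the knockdown and 32.9 ± 6.87 in the controls. By edgeR its log2 fold change was -0.232 ± 0.212 (SE, adjusted p = 0.731), in a table of 31 tested genes of which 12.9% were called. Control 3 was high for PXK, and without it the log2 fold change was 0.0409.

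Among the other kinases, PDK4, which inhibits pyruvate dehydrogenase, had 1.16, 1.15 and 1.004 FPKM in the knockdown libraries, against 1.40, 1.23 and 1.33 FPKM in the controls. The groups did not overlap, and the gene was not called (limma adjusted p = 0.203). MTMR7, a phosphoinositide phosphatase of the myotubularin family, averaged 1.40 ± 0.247 FPKM in the knockdown and 1.79 ± 0.287 FPKM in the controls (limma adjusted p = 0.180). FGR, a Src-family kinase of myeloid cells, had 0 counts in all knockdown libraries and in 1 control, and 4 and 12 in the others.

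The isoform table held 10 isoforms of PPP2R3B, a regulatory subunit of protein phosphatase 2A, of which 3 were tested. The isoform ENST00000390665 fell, in a table where 35.6% of the 45 tested isoforms were called in one direction or the other. It had 4.32, 4.69 and 5.05 FPKM in the knockdown libraries, against 10.1, 7.75 and 8.78 FPKM in the controls (limma adjusted p = 0.0213), and the call was lost without control 1 (0.0659), knockdown 1 (0.0550) or knockdown 3 (0.0709), with quantile normalization (0.191) and with no limit on FPKM (0.0801). By edgeR on counts it was called (adjusted p = 0.00237). The other isoforms tested, ENST00000477110 and ENST00000468169, were not called by limma (adjusted p = 0.121 and 0.692). By edgeR on counts ENST00000477110 was called, with a log2 fold change of -0.689 (adjusted p = 0.0368), against -0.389 by limma. Over its alternatives, limma or edgeR, its adjusted p ran from 0.0368 to 1.

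The genes whose pattern over the 6 libraries was most like that of a kinase gene were taken by the root mean square difference of centred log2(FPKM + 1), as a description. For PRKAR2B they were RBM5, an RNA-binding splicing regulator (0.0272), SCYL3 (0.0425) and MCUB (0.0570), against a median of 0.166 over all genes. For CAMKK1 they were LIG3, a DNA ligase (0.0404), RBM5 (0.0544) and FUCA2, a fucosidase (0.0572). For SCYL3 they were PRKAR2B (0.0425), RAD52, a recombination protein (0.0501), and RBM5 (0.0576). RBM5, which is near all 3, averaged 12.5 FPKM in the knockdown and 13.1 FPKM in the controls. This measure favours genes that vary little. All of these but RAD52 (0.0981) had a within-group SD of log2(FPKM + 1) below the median over the tested genes (0.0944).

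**Figure D4:**
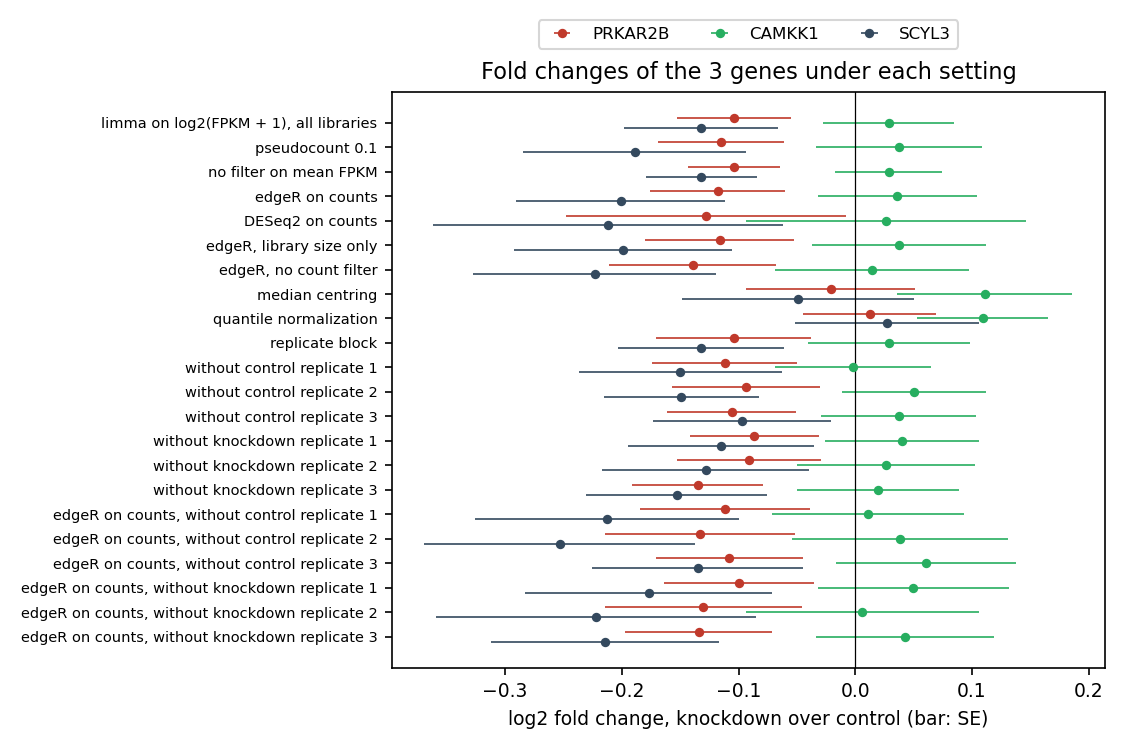
Log2 fold change of knockdown over control (points) with its SE (bars) for PRKAR2B, CAMKK1 and SCYL3 with all libraries by limma (top row) and under each of the 21 alternatives. PRKAR2B and SCYL3 lie below 0 in every row but quantile normalization, and CAMKK1 lies above 0 in every row but the one without control 1 by limma (-0.00189).

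Of 26 marker genes of luminal prostate, neuroendocrine, basal, fibroblast and leukocyte cells, 1 had a row in these tables, the leukocyte gene MPO, which had 0 counts in every library. The 10 luminal and androgen-regulated markers, KLK3 among them, were not analysed here, so the labelled cell type was not checked against them.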

How the data were processed

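Trizol extraction and an Illumina library procedure are given in the labels' protocols. Per the submitters' processing notes, cutadapt, HISAT2, StringTie (versions not given) and hg18 were used; strand use is not stated. The authors deposited, per the file headers, FPKM values and whole-number counts side by side for genes and isoforms, listing an FPKM of 0.0001 at a count of 0, and further counts per gene. Transcript length, a value of another kind that the authors deposited, served only to recover depth. The transcript count table held no gene of interest and was not used. Each table was analysed for 99 rows, which are part of the table; all 99 genes overlap their GENCODE 29 (GRCh38) place. Gene rows start at the lowest Ensembl identifiers and are no random draw.

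Depth was recovered as the median of count over length and FPKM across 23 or 24 isoforms with at least 1000 counts, and used as library size. The main test was limma 3.58.1 with a trend, on log2(FPKM + 1) and for means of at least 1 FPKM; counts with edgeR 4.0.16 (TMM, filterByExpr), or DESeq2 1.42.0 as an alternative (R 4.3.3). The fits were tested on simulated data. There limma called 21.9% of genes changed 1.2-fold, 41.4% of those changed 1.3-fold and 93% of those changed 2-fold. For edgeR the shares were 19.7%, 37.1% and 92.3%. Small changes were thus often missed, and a gene that was not called may still have changed. Replicate pairs differed by a chi-square of 24.5 to 64.7 per degree of freedom, so none was 1 library deposited more than once. Same-numbered libraries did not deviate together. The members and gene lists were chosen with earlier results of these data known. Named genes were the members, list genes, overlapping genes and the 3 nearest in pattern to each. Of the alternatives, 15 were planned and 6 were added after seeing the data. Some items are not reported here. The percentages given as counting error cover counting alone, whereas the SEs by edgeR include the spread between libraries. Each edgeR SE was derived as the absolute log2 fold change over the square root of the F statistic of the quasi-likelihood test.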

Additional observations from a re-analysis of the deposited data

How the results depend on the processing

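PRKAR2B, CAMKK1 and SCYL3 stayed uncalled under all 21 alternatives (limma, edgeR or DESeq2), with adjusted p from 0.115 to 0.903, 0.206 to 0.987 and 0.104 to 0.881. With quantile normalization the log2 fold changes of PRKAR2B, SCYL3, PDK4 and the PPP2R3B isoform ENST00000468169 changed sign, to 0.0123, 0.0271, 0.146 and 0.00934; with median centring MCUB was at 0.00113; the cause was not tested. Leaving out each library in turn, limma gave -0.135 to -0.0865 for PRKAR2B, -0.00189 to 0.0504 for CAMKK1 and -0.153 to -0.0969 for SCYL3, and edgeR on counts, added after seeing the data, -0.134 to -0.0997, 0.00607 to 0.0607 and -0.253 to -0.135. CREBBP, at 0.105 with all libraries, ran from -0.00191 (without knockdown 1) to 0.187 by limma and was at -0.0101 without knockdown 1 by edgeR; ENST00000468169 ran from -0.523 to 0.0121 (without knockdown 2), and PXK from -0.273 to 0.0409 (without control 3). Genes called, 22 with all libraries, numbered 13 to 25 when 1 library was left out by limma (13 without knockdown 1, 14 without knockdown 3) and 9 to 22 by edgeR (13 without control 2, 9 without knockdown 2). The replicate numbers paired no libraries (correlations of deviations of -0.120, -0.116 and -0.125), and with the replicate block 17 genes were called and PRKAR2B, CAMKK1 and SCYL3 had limma adjusted p of 0.272, 0.766 and 0.210. SCYL3 had 645 to 1069 fragments a library, with a counting error of 3.06% to 3.94%, under its spread between libraries (coefficient of variation 4.18% in the knockdown and 6.27% in the controls).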
